A study of Equus caballus with 18 samples.

Results

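MYOZ1 (calsarcin-2, ENSECAG00000016739) and FHL3 (ENSECAG00000011590) are 2 of the 25239 genes in the count table of 18 horse skeletal muscles. They were chosen by identifier as regulators that sit at the Z-disc, and their levels were set beside those of MYH1 (ENSECAG00000022909) and MYH7 (ENSECAG00000019844). All muscles came from 1 male Jeju horse, and were frozen after slaughter, with 1 library of ribosomal RNA-depleted total RNA per muscle and no treatment. The labels name only the muscle, so the 18 libraries were grouped by the place of the named muscle in the body. The proximal forelimb group holds the long head of the triceps brachii, biceps brachii, infraspinatus and supraspinatus (n = 4), and the girdle and neck group the rhomboideus, omohyoideus, trapezius and pectoralis major (n = 4). The proximal hindlimb group holds the semitendinosus, gluteus superficialis and the vertebral, middle and caudal parts of the biceps femoris (n = 5), and the distal limb extensors are the extensor digitorum communis, extensor carpi radialis, extensor digitorum longus and extensor digitorum lateralis (n = 4). The back is represented by the longissimus thoracis and lumborum alone (n = 1). The muscle labelled pectoralis major is drawn by the study as the pectoralis ascendens. As there is 1 horse and 1 library per muscle, the libraries of a group stand in for replicates, with the 3 parts of the biceps femoris entered as 3 of them, and p-values measure the spread between these muscles and not between horses.

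The Z-disc is the boundary of the sarcomere, where the thin filaments of neighbouring sarcomeres are anchored by alpha-actinin. MYOZ1 belongs to the calsarcins, small Z-disc proteins that bind alpha-actinin and the phosphatase calcineurin. It is known as the calsarcin of fast fibres, and calcineurin signalling is known to favour the slow fibre program. FHL3 is a protein built of LIM domains that is found at the Z-disc and in the nucleus of muscle cells and is known as a partner of myogenic transcription factors. MYH1 encodes the fast IIx myosin heavy chain and MYH7 the slow myosin heavy chain. Other fast myosin genes, such as that of IIa fibres, are not covered by this pair, so a low level of MYH1 does not by itself mark a slow muscle. In the RefSeq gene table of the TB-T2T thoroughbred assembly, the protein-coding neighbours of MYOZ1 are USP54 and SYNPO2L, and those of FHL3 are UTP11 and SF3A3. The strand setting of the counting is not given in the sources used here, so reads of overlapping genes could be shared. Closely related myosin genes may likewise have shared reads, which makes the levels of MYH1 and MYH7 uncertain to that extent.

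Between 31395013 and 50508515 reads per library were counted on genes. Of these reads, 57.6% to 72.2% came from only 10 genes, those with the highest mean. Levels are therefore given as CPM, counts set relative to the library total, after scaling by edgeR's TMM factors, which correct for such differences in composition and lay between 0.809 and 1.44. MYH7 was at 881 CPM or more and MYH1 at 134 CPM or more in every muscle. In bulk tissue, fewer fibres of a type and less RNA per fibre cannot be told apart.

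MYOZ1 was detected in every muscle, with a lowest level of 392 CPM, a median of 911 CPM and a highest level of 1385 CPM. The levels ran over a 3.53-fold range. In the proximal hindlimb it was at 1385 CPM in the vertebral part of the biceps femoris, 1354 CPM in the gluteus superficialis, 1328 CPM in the semitendinosus, 1223 CPM in the middle part of the biceps femoris and 855 CPM in its caudal part. In the proximal forelimb the level was 1290.0 CPM in the triceps brachii, 1166 CPM in the infraspinatus, 839 CPM in the supraspinatus and 614 CPM in the biceps brachii. The first 3 places in the order thus belonged to hindlimb muscles, and both biceps brachii and the caudal biceps femoris lay well under the other members of their groups. In the longissimus of the back MYOZ1 was at 1287 CPM. In the girdle and neck it was at 1066 CPM in the pectoralis major, 629 CPM in the trapezius, 621 CPM in the omohyoideus and 532 CPM in the rhomboideus. In the distal limb extensors it was at 918 CPM in the extensor carpi radialis, 904 CPM in the extensor digitorum longus, 681 CPM in the extensor digitorum lateralis and 392 CPM in the extensor digitorum communis. None of the distal extensors reached the 6 highest of the 9 proximal limb muscles.

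FHL3 followed another order. Its lowest level was 95.3 CPM, its median 178 CPM and its highest level 402 CPM, a 4.22-fold range. In the proximal forelimb FHL3 was at 402 CPM in the infraspinatus, 255 CPM in the supraspinatus, 249 CPM in the triceps brachii and 179.6 CPM in the biceps brachii. In the proximal hindlimb it was at 271 CPM in the gluteus superficialis, 219, 203 and 177 CPM in the caudal, vertebral and middle parts of the biceps femoris and 141 CPM in the semitendinosus. The infraspinatus stood above all others, and the semitendinosus was 3rd in the order of MYOZ1 and 14th in that of FHL3. In the longissimus FHL3 was at 275 CPM. In the girdle and neck it was at 197 CPM in the trapezius, 164 CPM in the omohyoideus, 156 CPM in the pectoralis major and 127 CPM in the rhomboideus. In the distal limb extensors it was at 149.8 CPM in the extensor digitorum communis, 133 CPM in the extensor carpi radialis, 129 CPM in the extensor digitorum longus and 95.3 CPM in the extensor digitorum lateralis. The distal extensors were low throughout, and the semitendinosus was the only proximal limb muscle below any of them. With library totals alone, the middle part of the biceps femoris, at 152 CPM, was also below the extensor digitorum communis, at 166 CPM.

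**Figure D1:**
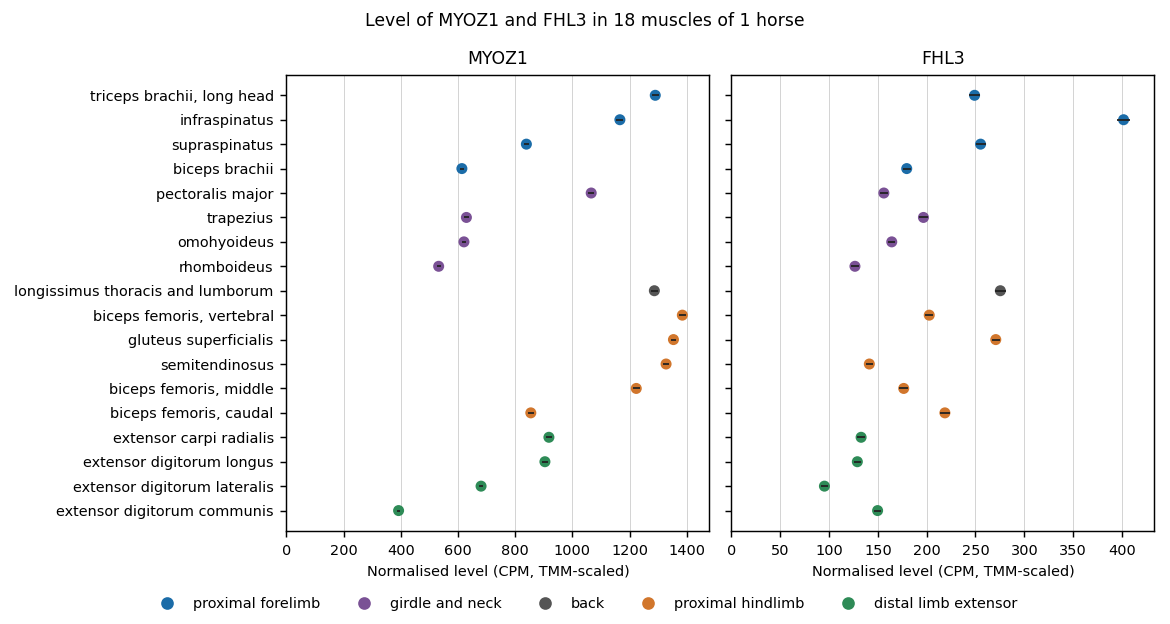
CPM after TMM scaling (x axis, from 0) of MYOZ1 (left) and FHL3 (right) in each of the 18 muscles, coloured by place in the body. Points are single libraries and bars are exact 95% Poisson intervals of the counts. MYOZ1 runs from 392 to 1385 CPM with hindlimb muscles in the first 3 places, and FHL3 from 95.3 to 402 CPM with the infraspinatus highest and the distal extensors low.

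The order of the muscles was firm against counting error only in part. MYOZ1 had 15776 to 73909 counts per library, and the exact 95% Poisson interval reached at most 1.56% to either side of the count. For FHL3, with 3579 to 14786 counts, it was at most 3.29%. The intervals describe counting error alone, because the reads carried no molecular identifiers and copies of 1 molecule could not be set aside. Among the 17 pairs of neighbours in the order, the intervals overlapped for 5 pairs of MYOZ1 and 7 pairs of FHL3. Set against the spread of muscles within a group, which had an SD of 0.45 for MYOZ1 and 0.35 for FHL3 on the log2 CPM scale, all 17 pairs of MYOZ1 and 15 pairs of FHL3 were closer than that SD. The place of single muscles also depended on the scaling. With library totals alone, the gluteus superficialis was highest for both genes, at 1899.7 CPM of MYOZ1 and 380.0 CPM of FHL3, while the infraspinatus was at 325 CPM of FHL3.

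The parts of the biceps femoris give the spread within 1 named muscle. The 3 parts differed by at most 1.62-fold for MYOZ1 and 1.24-fold for FHL3. MYH7 differed among them by 3.89-fold, from 2320 CPM in the vertebral part to 9024 CPM in the caudal part, and MYH1 by 1.12-fold. MYOZ1 was highest in the vertebral part, where MYH7 was lowest. The middle and caudal parts were close in MYH7, at 8867 and 9024 CPM, but stood at 1223 and 855 CPM of MYOZ1. FHL3 was lowest in the middle part.

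Whether forelimb and hindlimb differ was asked in the proximal muscles. MYOZ1 was at 977 ± 308 CPM (SD, n = 4) in the proximal forelimb and 1229 ± 218 CPM (n = 5) in the proximal hindlimb. Its log2FC of -0.33 did not pass the threshold (standard error 0.29, 95% interval -0.95 to 0.29, adjusted p = 0.654 from edgeR's quasi-likelihood test with Benjamini-Hochberg adjustment). FHL3 pointed the other way, with 271 ± 93.4 CPM (SD, n = 4) in the forelimb and 202 ± 48.3 CPM (n = 5) in the hindlimb. Its log2FC was 0.43 (standard error 0.23, 95% interval -0.06 to 0.91, adjusted p = 0.44 from edgeR). The groups overlapped for both genes. The size of both differences depended on single muscles and on the scaling. That of MYOZ1 was -0.16 without the biceps brachii and -0.58 with library totals alone, and that of FHL3 was 0.17 without the infraspinatus and 0.16 with library totals alone. In this comparison edgeR called 0% of the 14770 genes at an adjusted p below 0.05, with 1914 genes at an unadjusted p below 0.05, and DESeq2's Wald test called 77 genes.

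The distal limb extensors, which act on the carpus and the digits, were compared with the proximal muscles of both limbs. They were kept as 1 group without regard to limb, and the label of the extensor digitorum lateralis does not give its limb. FHL3 was lower in the distal limb extensors, at 127 ± 22.8 CPM (SD, n = 4) against 233 ± 76.0 CPM (n = 9). The difference was 1.85-fold, a log2FC of -0.89 (standard error 0.22, 95% interval -1.35 to -0.43, adjusted p = 0.0115 from edgeR), and 3 of the 4 extensors lay under all 9 proximal muscles. FHL3 was 1 of 946 genes called lower, 6.4% of the genes tested, while 9.34% were called higher and 15.7% were called in either direction, so the call is one of many in this comparison. MYOZ1 was at 724 ± 246 CPM (SD, n = 4) in the extensors and 1117 ± 277 CPM (n = 9) in the proximal muscles, with a log2FC of -0.60, not past the threshold (standard error 0.27, 95% interval -1.16 to -0.03, adjusted p = 0.139 from edgeR). MYH1 was very uneven in the extensors, at 28709 CPM in the extensor carpi radialis, 2332 CPM in the extensor digitorum longus, 481 CPM in the extensor digitorum lateralis and 301 CPM in the extensor digitorum communis. FHL3 was low at both ends of this range, and the part of fibre type in the result was not tested. Without the extensor digitorum lateralis, the muscle with the least FHL3, the log2FC of FHL3 was -0.77 and the call was lost (adjusted p = 0.0616 from edgeR), against adjusted p of 0.000379 to 0.0334 under the other settings, among them 0.0197 with the parts of the biceps femoris summed to 1 library, and 0.00667 to 0.0307 without any other single muscle. The number of genes called in this comparison fell from 2325 to 929 without that muscle.

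The girdle and neck muscles were compared with the proximal forelimb. MYOZ1 was at 712 ± 240 CPM (SD, n = 4) in the girdle and neck, a log2FC of -0.46 (standard error 0.31, 95% interval -1.10 to 0.19, adjusted p = 0.667 from edgeR). FHL3 was at 161 ± 28.8 CPM (SD, n = 4), a log2FC of -0.75 (standard error 0.25, 95% interval -1.27 to -0.23, adjusted p = 0.515 from edgeR). The trapezius, at 197 CPM of FHL3, was the only girdle or neck muscle above the lowest forelimb muscle, the biceps brachii at 179.6 CPM. With library totals alone it was instead the omohyoideus, at 237 CPM, and the lowest forelimb muscle was the triceps brachii at 205 CPM. MYH1 was at 10131 CPM in the pectoralis major and at 134 to 291 CPM in the other girdle and neck muscles, against 4658 CPM or more in the forelimb, and its part in these differences was not tested. Neither gene passed the threshold. The log2FC of MYOZ1 was -0.72 without the pectoralis major, -0.29 without the triceps brachii and -0.28 with library totals alone, and that of FHL3 was -0.50 without the infraspinatus. Here too edgeR called 0% of the genes, with 1345 genes at an unadjusted p below 0.05, and DESeq2's Wald test called 13.

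**Figure D2:**
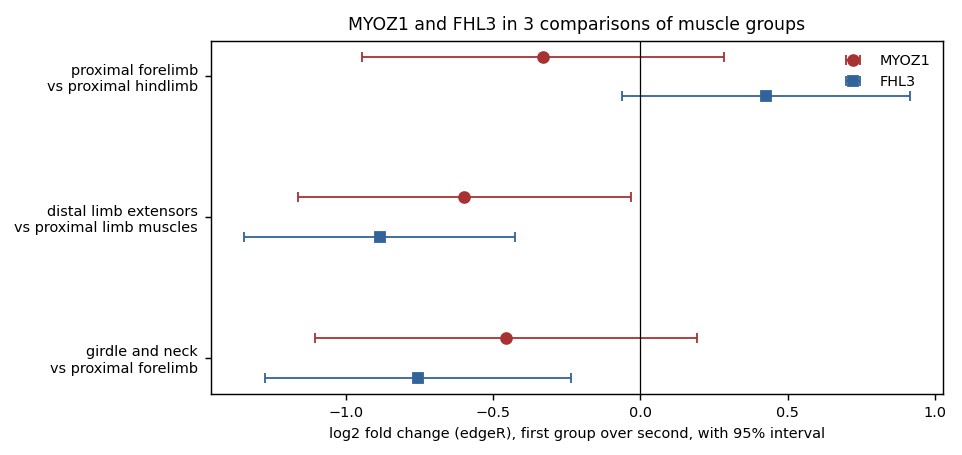
log2FC from edgeR (x axis, first group over second) of MYOZ1 (circles) and FHL3 (squares) with 95% intervals in 3 comparisons of muscle groups. FHL3 in the distal limb extensors, at -0.89, is the only one of the 6 values with an adjusted p below 0.05.

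The ratio of MYOZ1 to FHL3 counts within a library needs no scaling between libraries. It is a ratio of counts not corrected for gene length, so only its changes between muscles can be read. It ran from 2.62 in the extensor digitorum communis to 9.40 in the semitendinosus. In the proximal forelimb the ratio was 5.18 in the triceps brachii, 3.42 in the biceps brachii, 3.29 in the supraspinatus and 2.90 in the infraspinatus. In the proximal hindlimb it was 9.40 in the semitendinosus, 6.93, 6.83 and 3.91 in the middle, vertebral and caudal parts of the biceps femoris and 4.999 in the gluteus superficialis. The ratio was thus mostly higher in the hindlimb, and the groups overlapped through the triceps brachii. The mean taken on the log2 scale was 1.70-fold lower in the forelimb, with p = 0.0397 in an exact two-sided permutation test. This p became 0.119 after Benjamini-Hochberg adjustment over the 3 comparisons and did not pass the threshold. This ratio was added after the levels had been seen. In the distal limb extensors the ratio was 7.14 in the extensor digitorum lateralis, 7.01 in the extensor digitorum longus and 6.91 in the extensor carpi radialis, close together, and 2.62 in the extensor digitorum communis. In the girdle and neck it was 6.83 in the pectoralis major, 4.21 in the rhomboideus, 3.78 in the omohyoideus and 3.20 in the trapezius, and in the longissimus it was 4.67. For the distal extensors against the proximal muscles the exact permutation test gave an adjusted p of 0.618, at a log2 difference of 0.18, and for the girdle and neck against the proximal forelimb likewise 0.618, at 0.26. Leaving out single muscles moved the log2 difference between 0.05 and 0.54 in the distal comparison, the highest without the extensor digitorum communis. In the girdle comparison it moved between 0.04, without the pectoralis major, and 0.43, without the triceps brachii, and no exact permutation test there passed the threshold.

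**Figure D3:**
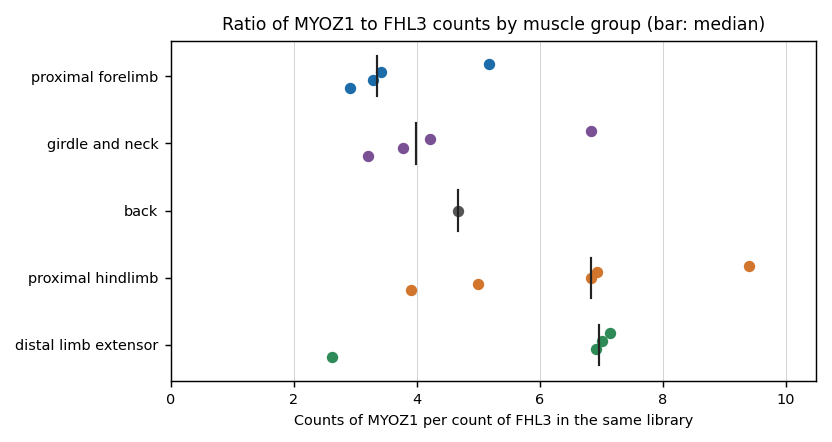
Counts of MYOZ1 per count of FHL3 in the same library (x axis, from 0), 1 point per muscle, with the median of each group as a bar. Of the distal extensors, 3 sit between 6.91 and 7.14 and the extensor digitorum communis at 2.62.

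After TMM scaling, MYOZ1 was low in the muscles with little MYH1, the fast myosin gene, and did not follow it among the others. The 18 muscles fell into separate clusters of MYH1, with 5 muscles between 134 and 481 CPM and 13 muscles between 2332 and 28709 CPM, so no correlation over all muscles is given. The MYH1-poor muscles were the rhomboideus, trapezius, omohyoideus, extensor digitorum communis and extensor digitorum lateralis. After TMM scaling, all 5 were among the 6 lowest in MYOZ1, at 392 to 681 CPM, and the remaining one of the 6 was the biceps brachii. The place of the omohyoideus depended on this scaling. With library totals alone it was at 894 CPM of MYOZ1, above the biceps brachii at 744 CPM and the extensor carpi radialis at 764 CPM. The other MYH1-poor muscles were then at 435 to 606 CPM. Among the other 13 muscles the relation was weak, with Pearson's r of 0.13 and Spearman's rho of 0.12 on the log2 CPM scale (n = 13 muscles), and 65% of all genes had an r of that size or larger with MYH1. Over a 12.3-fold range of MYH1 in these muscles the fitted slope was 0.04 log2 units of MYOZ1 per log2 unit of MYH1 (standard error 0.10). The extensor carpi radialis, with the most MYH1 of all muscles at 28709 CPM, had 918 CPM of MYOZ1, and the gluteus superficialis, with 2565 CPM of MYH1, had 1354 CPM. Without the gluteus superficialis and the extensor digitorum longus, the muscles farthest from the median of MYH1, r was 0.31 (n = 11). It was 0.35 without the gluteus superficialis alone, -0.08 without the biceps brachii and -0.13 with library totals that exclude the 10 most abundant genes, so its sign was not stable. The deviations from the group means had an r of 0.04 over the 11 of these muscles that share a group.

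MYOZ1 tended to be lower where the slow myosin gene MYH7 was higher over all 18 muscles. Pearson's r was -0.48 and Spearman's rho -0.61 (n = 18 muscles), with a slope of -0.22 log2 units of MYOZ1 per log2 unit of MYH7 (standard error 0.10). The trapezius and rhomboideus, with 26284 and 25655 CPM of MYH7, had 629 and 532 CPM of MYOZ1. The vertebral part of the biceps femoris, with 2320 CPM of MYH7, had the most MYOZ1. The extensor carpi radialis departed from this order, since it had the least MYH7, 881 CPM, and an intermediate level of MYOZ1. Without these last 2 muscles, which lay farthest from the median of MYH7, r was -0.60 (n = 16), and within groups it was -0.56 (n = 17). An r of this size or larger with MYH7 was found for 16.6% of all genes. The trapezius, rhomboideus, extensor digitorum communis and extensor digitorum lateralis ranked highest in MYH7, and all belong to the MYH1-poor muscles. They were left out of the r with MYH1 over 13 muscles, so the relations to MYH7 and MYH1 cover unlike sets of muscles. Whether MYOZ1 follows MYH7 within those 13 muscles was not tested. The muscles share 1 horse and the genes of a library share its total, so correlations are given as descriptions without p-values.

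FHL3 showed no stable relation to MYH7 over the 18 muscles, or to MYH1 over the 13 muscles above the gap. Its r with MYH7 was 0.03 and its rho -0.04 (n = 18 muscles), and 94.7% of all genes had an r of that size or larger. Its r with MYH1 was -0.12 and its rho -0.10 over the 13 muscles above the gap, a size reached by 67.8% of genes. The value with MYH1 depended on single muscles, with an r of -0.46 without the extensor digitorum longus and 0.07 without the extensor carpi radialis. Without the pair of muscles farthest from the median, r was -0.19 with MYH7 (n = 16) and -0.42 with MYH1 (n = 11). The 5 MYH1-poor muscles had 95.3 to 197 CPM of FHL3 and the others 129 to 402 CPM, and 4 of the 5 were in the lower 9 of the order. The infraspinatus, with the most FHL3, had 6752 CPM of MYH1 and 12650 CPM of MYH7.

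**Figure D4:**
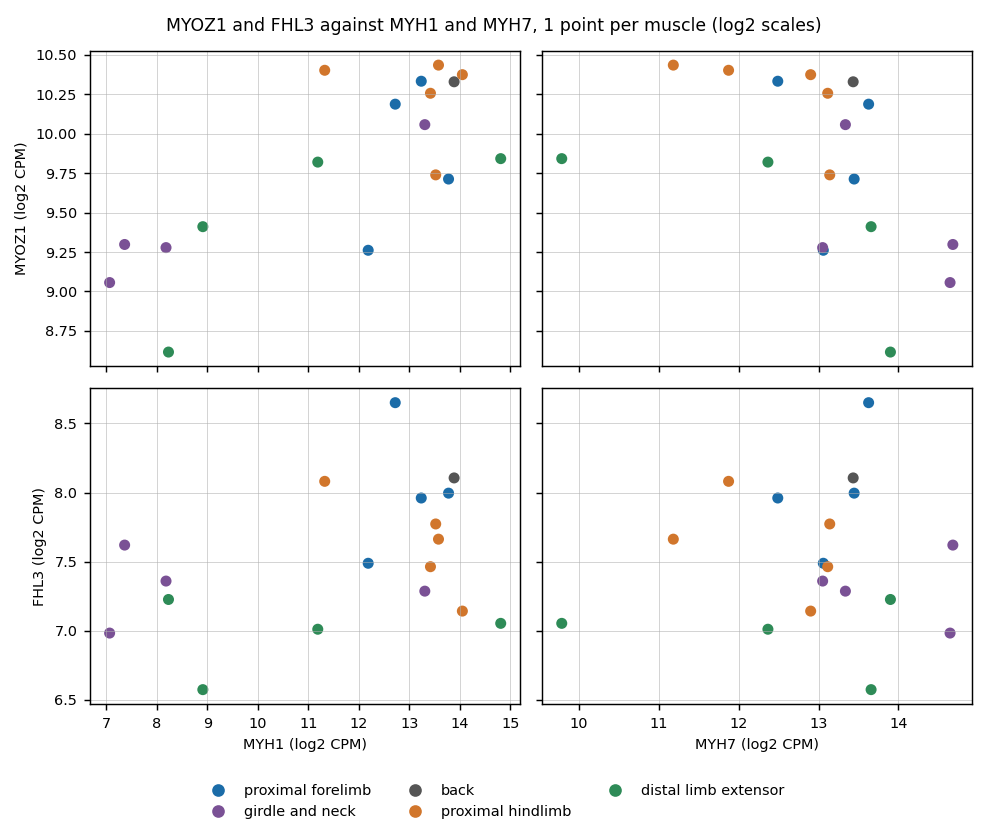
log2 CPM of MYOZ1 (upper row) and FHL3 (lower row) against log2 CPM of MYH1 (left) and MYH7 (right), 1 point per muscle, coloured by place in the body. After TMM scaling, MYOZ1 is low in the 5 muscles left of the gap in MYH1 and scattered in the 13 right of it (r = 0.13). With library totals alone the omohyoideus, left of the gap, is not low, at 894 CPM of MYOZ1. Over all 18 muscles MYOZ1 falls with MYH7 (r = -0.48), and FHL3 shows an r of 0.03 with MYH7. The muscles highest in MYH7 are among those left of the gap in MYH1.

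The members of the pair moved together only loosely. Over the 18 muscles their r was 0.46 and rho 0.43, and 22.5% of all genes had an r of that size or larger with FHL3. Centred on the group means the r was 0.17 (n = 17 muscles). Among 4034 other genes with a mean of at least 10 CPM, 893 had a higher r with MYOZ1 than FHL3 had, and 640 had a higher r with FHL3 than MYOZ1 had. The gene most like MYOZ1 was ENSECAG00000000577 (r = 0.95, 12.0 to 23.0 CPM), followed by ENSECAG00000022433 (r = 0.94, 3959 to 16892 CPM). The gene most like FHL3 was ENSECAG00000011519 (r = 0.89, 27.6 to 109.9 CPM), followed by ENSECAG00000018788 (r = 0.83, 11.4 to 29.0 CPM). MYOZ1 had 141 genes with an r of at least 0.8, 3.5% of those compared, and FHL3 had 5, or 0.124%. The 10 genes most like MYOZ1 and the 10 most like FHL3 shared 0 genes, and they are given by identifier because the table pairs no identifier with a name. With other scalings the r of these 4 genes with their member stayed between 0.82 and 0.94.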

How the data were processed

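The authors removed ribosomal RNA, made TruSeq libraries, sequenced them on an Illumina HiSeq, trimmed the reads and aligned them to EquCab2 in a two-pass run of STAR (version 2.5.2b in the submitters' processing notes). The deposited values are raw counts per Ensembl gene, without normalization, in 1 table of 18 libraries. The counts came from that alignment run, and the strand setting is not given in the sources used here.

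The 14770 of 25239 genes that passed edgeR's filterByExpr were fitted by the quasi-likelihood test of edgeR (version 4.0.16, R 4.3.3) with TMM factors and a term for each of the 5 groups of muscles, adjusted over all genes tested by Benjamini-Hochberg. Both genes passed the filter. For the distal comparison both proximal groups had equal weight. Genes were called at an adjusted p below 0.05. log2 CPM carried a prior count of 1. DESeq2 (version 1.42.0), exact permutation tests, other scalings and filters and leaving out muscles were alternatives. Fits were tested on simulated data. No pair of libraries agreed within sampling noise.

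MYOZ1, FHL3 and the myosin genes were taken by identifier, and the pairing of these 4 identifiers with names was given for this work and could not be checked against a table here. The genes most like each member were the 2 highest in r by identifier. The genes and lists were chosen with earlier results of these data known. Correlations with MYH1 were limited to 13 muscles after the gap in MYH1 was seen. Lists of calsarcin, FHL, Z-disc, calcineurin, myogenic, fibre type and cell type marker genes were set up but could not be described, since 0 identifiers could be paired with symbols through the RefSeq table. Protein and promoter sequences and coordinates were not used here. The grouping of muscles into clusters made by the study was not used.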

Additional observations from a re-analysis of the deposited data

Results flagged for a closer look

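In 3 of the 20 groups of values checked, 1 muscle lay farther from its group on the log2 scale than Dixon's criterion allows, where chance gives about 1 in 20. MYOZ1 in the caudal part of the biceps femoris, at 854.7 CPM, was far below the other proximal hindlimb muscles, which had 1223 to 1385 CPM (gap over range 0.744 in log2 CPM, limit 0.71, but 0.696 in CPM, under the limit). MYH1 in the gluteus superficialis, at 2565 CPM, was far below the other proximal hindlimb muscles, which had 10947 to 16961 CPM (gap over range 0.768 in log2 CPM, but 0.582 in CPM, under the limit). The ratio of MYOZ1 to FHL3 counts in the extensor digitorum communis, 2.619, was far below the 6.91 to 7.14 of the other distal extensors (gap over range 0.967 in log2 and 0.948 on the linear scale, limit 0.829). On the linear scale, added after the data were seen, 3 groups were also past the limit, that of this ratio and those of MYH1 in the pectoralis major among girdle and neck muscles and in the extensor carpi radialis among distal extensors. The extensor digitorum communis had the lowest MYOZ1 level of all 18 and the highest FHL3 level of the distal extensors. Without it the ratio was 0.54 higher in the distal extensors than in the proximal limb muscles on the log2 scale, in place of 0.18, and the exact permutation test still did not pass (adjusted p = 0.177).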

How the results depend on the processing

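Of 150 alternative values of log2FC, 148 kept direction and side of the threshold and 0 reversed. The alternatives include fits without a muscle outside the groups compared, which moved the log2FC little. They also include exact permutation tests, whose unadjusted p was held to the same threshold of 0.05. Only FHL3 in the distal extensors was called in the main fits, so for the other values the side kept was that of no call. FHL3 in the distal extensors lay between -0.98 and -0.76 when single muscles were left out (adjusted p 0.00667 to 0.0616 from edgeR), and the call was lost only without the extensor digitorum lateralis (-0.77). MYOZ1 there had an exact permutation p of 0.0392 at a difference of -0.66, unadjusted over genes. The unadjusted p from edgeR was close to it, at 0.0393. After adjustment over genes, p was 0.0651 to 0.311 in the alternatives fitted with edgeR or DESeq2. Library totals alone moved the median log2FC of all genes to -0.15, -0.16 and 0.14 in the forelimb, distal and girdle comparisons, and called 311 genes higher and 578 lower in the distal extensors, against 1379 and 946. The forelimb comparison had 10 calls when only its groups were fitted, and the girdle comparison 1 to 13 under 4 alternatives. With the parts of the biceps femoris summed to 1 library, none of the 6 values changed side of the threshold. The girdle comparison holds none of these parts, so its values could hardly change. Over its alternatives the r with MYH1, taken from 13 muscles, ran from -0.13 to 0.35 for MYOZ1 and from -0.46 to 0.07 for FHL3. That with MYH7, taken from 18 muscles, ran from -0.19 to 0.13 for FHL3 and from -0.64 to -0.41 for MYOZ1. No paired analysis was possible because each muscle is 1 library of the same horse and replicate numbers only name muscles. Depth did not limit these genes, which had at least 3579 counts, while 1 horse, muscles in place of replicates and unmatched gene names did.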
